A study of Mus musculus with 18 samples.

Results

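Myoblasts make chemokines and cytokines, and 10 such genes were followed here across differentiation and across overexpression of the long noncoding RNA MUNC. The chemokines grouped here as interferon-driven were Cxcl10 and Ccl5, a grouping set by name and not tested in these cells. The other chemokines were Cxcl1, Cxcl5, Cxcl12, Ccl2 and Ccl7, and the cytokines were Il6, Lif and Csf1. The genes were chosen by name and matched to the Ensembl identifiers of the expression table, in which they are 10 of 35275 genes. All 10 passed the filter on low values described below.

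The cells were C2C12, an immortal mouse myoblast line whose cells can fuse to myotubes in low serum, and the labels describe this stock as PAX7 negative. MUNC is transcribed upstream of Myod1. RNA-seq was done on 18 polyA libraries, 3 replicates in each of 6 groups. The 3 lines were control (genotype label Wild-type), MUNC spliced, in which the spliced RNA is overexpressed, and MUNC genomic, in which the genomic form is. Each line was sampled in growth medium (GM, 20% fetal bovine serum, before confluence) and after 3 days in differentiation medium (DM3, 2% horse serum). All groups thus share the PAX7 negative stock. Whether control cells carried an empty vector, and whether a line was 1 clone or a pool, is not given in the sources used here. Each MUNC line is a single line, so an effect of MUNC and a difference between lines cannot be told apart. The titles number the replicates with a prefix BR that no label spells out, and nothing states that they were separate cultures, so p-values measure the spread between these libraries, which may be technical.

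Recovered depth was 38416702 to 68788327 reads per library, and a gene with no reads had an upper limit of 3 reads, at most 0.0757 FPM (fragments scaled for library size). The label that names samples myoblasts or myotubes went against the title in 9 of 18 samples, and groups were taken from titles. The level of MUNC itself was not analysed here, so overexpression was not checked. Of 9 myoblast and myotube markers, 5 were below 1 FPM in every control library of both media. Myod1, the master regulator of the lineage, was at 0 to 0.0854 FPM in control GM and 0 to 0.221 FPM in control DM3, while Myf5 was at 66.0 to 81.5 FPM in control GM. Myog, which drives terminal differentiation, was at 0.192 to 0.434 FPM in control DM3, against 6.50 to 14.7 FPM in MUNC genomic DM3 and 225.9, 52.6 and 41.0 FPM in MUNC spliced DM3. In control DM3 Myh3 was at 0.375 to 0.497 FPM and Acta1 at 3.43 to 5.68 FPM, below its mean of 20.7 FPM in control GM. Replicate 1 of MUNC spliced DM3 stood apart from its group in Myog, and the part of differentiation state in the results was not tested. Below, differentiation names the move from GM to DM3, also in control cells, where Myog and Myh3 stayed below 1 FPM. Of the 10 macrophage and leukocyte markers, Adgre1 was at 0 in 5 of 6 groups, and the list's summed level was 11.3 to 24.2 FPM, of which Cd14 was the main part. Of its 4 tested markers, against control, 1 rose (Aif1) and 2 fell (Cd68, Cd14) in MUNC spliced GM, 1 rose (Lyz2) and 2 fell (Cd68, Cd14) in MUNC spliced DM3, and 1 rose (Lyz2) and 3 fell (Cd68, Cd14, Aif1) in MUNC genomic DM3. None was called (0 of 4) in MUNC genomic GM, and the part of such cells was not tested. The 5 endothelial markers summed to 0.25 to 7.63 FPM, highest in MUNC genomic GM, where Cdh5 averaged 7.14 FPM. Only 2 of the 5 were tested: Cdh5, higher than control in MUNC genomic cells, and Tek, higher in MUNC spliced cells, in both media. Each passed the filter on low values only through that line, so its rise is a description and not a test. Outside that line Cdh5 was at most 0.407 FPM and Tek at most 0.297 FPM. Pecam1, Kdr and Tie1 were at or below 0.221 FPM in every library. The 6 fibroblast and mesenchymal markers summed to 3569 to 15460 FPM, mostly Col1a1 and Col3a1. Of the 5 tested, against control, 3 rose in MUNC spliced GM, 2 in MUNC genomic GM and 2 in MUNC spliced DM3. In MUNC genomic DM3 1 rose and 1 fell. Of all tested genes 35.5%, 26.8%, 43.3% and 40.3% were called in these 4 comparisons, and the part of such cells was not tested. Fewer cells of a type and less RNA per cell cannot be told apart in these bulk libraries.

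Chemokines are small secreted proteins that draw leukocytes along a gradient by way of receptors coupled to G proteins. Cxcl10 and Ccl5 are induced by interferons and by NF-kB and attract T cells, Cxcl1 and Cxcl5 attract neutrophils, Ccl2 and Ccl7 attract monocytes, and Cxcl12 guides progenitor cells that carry Cxcr4. Il6 and Lif signal through the shared receptor chain Il6st to Stat3, and Csf1 sustains macrophages through Csf1r. In injured muscle these signals recruit immune cells and act on the myogenic cells themselves.

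FPM are not scaled for gene length. Changes are differences of mean log2(FPM + 1) with their standard error (SE), from a limma fit of all 18 libraries to 13869 genes, and this scale understates changes of genes near 0. A gene rose or fell where its Benjamini-Hochberg adjusted p over all tested genes was under 0.05. Values are mean ± SD over 3 replicates. The comparisons of the MUNC lines with control share the control libraries and are given side by side without any count of agreement.

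Per kilobase of exon, so that genes can be compared, Csf1 was the highest of the 10 genes in control GM at 157.6 ± 18.5 FPM per kb. Ccl2 at 70.8 ± 37.6, Ccl7 at 51.9 ± 31.2 and Cxcl5 at 27.1 ± 15.7 FPM per kb followed, and neighbours in this order overlapped within their SD. Within each control GM library, however, Ccl7 was below Ccl2, at 0.652 to 0.768 of it. Cxcl1 (7.99 ± 3.61), Ccl5 (7.59 ± 1.96), Cxcl12 (7.52 ± 1.03) and Cxcl10 (5.87 ± 4.92 FPM per kb) were alike within their spread. Lif was at 3.32 ± 0.101 FPM per kb, and Il6 was the lowest of the 10 in all 6 groups, at 0.173 ± 0.132 FPM per kb in control GM. The top of the order changed with medium and line. In control DM3 it was Ccl5 (272.6 ± 59.4 FPM per kb) above Csf1 (120.3 ± 15.3). In MUNC genomic GM it was Ccl7 (168.9 ± 81.3) and Csf1 (131.6 ± 21.6), within their spread. In MUNC genomic DM3 it was Csf1 (81.8 ± 9.81) and Cxcl12 (69.8 ± 1.08 FPM per kb). Csf1 led in MUNC spliced cells in both media, at 77.8 ± 14.3 FPM per kb in GM and 93.8 ± 14.2 FPM per kb in DM3.

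**Figure D1:**
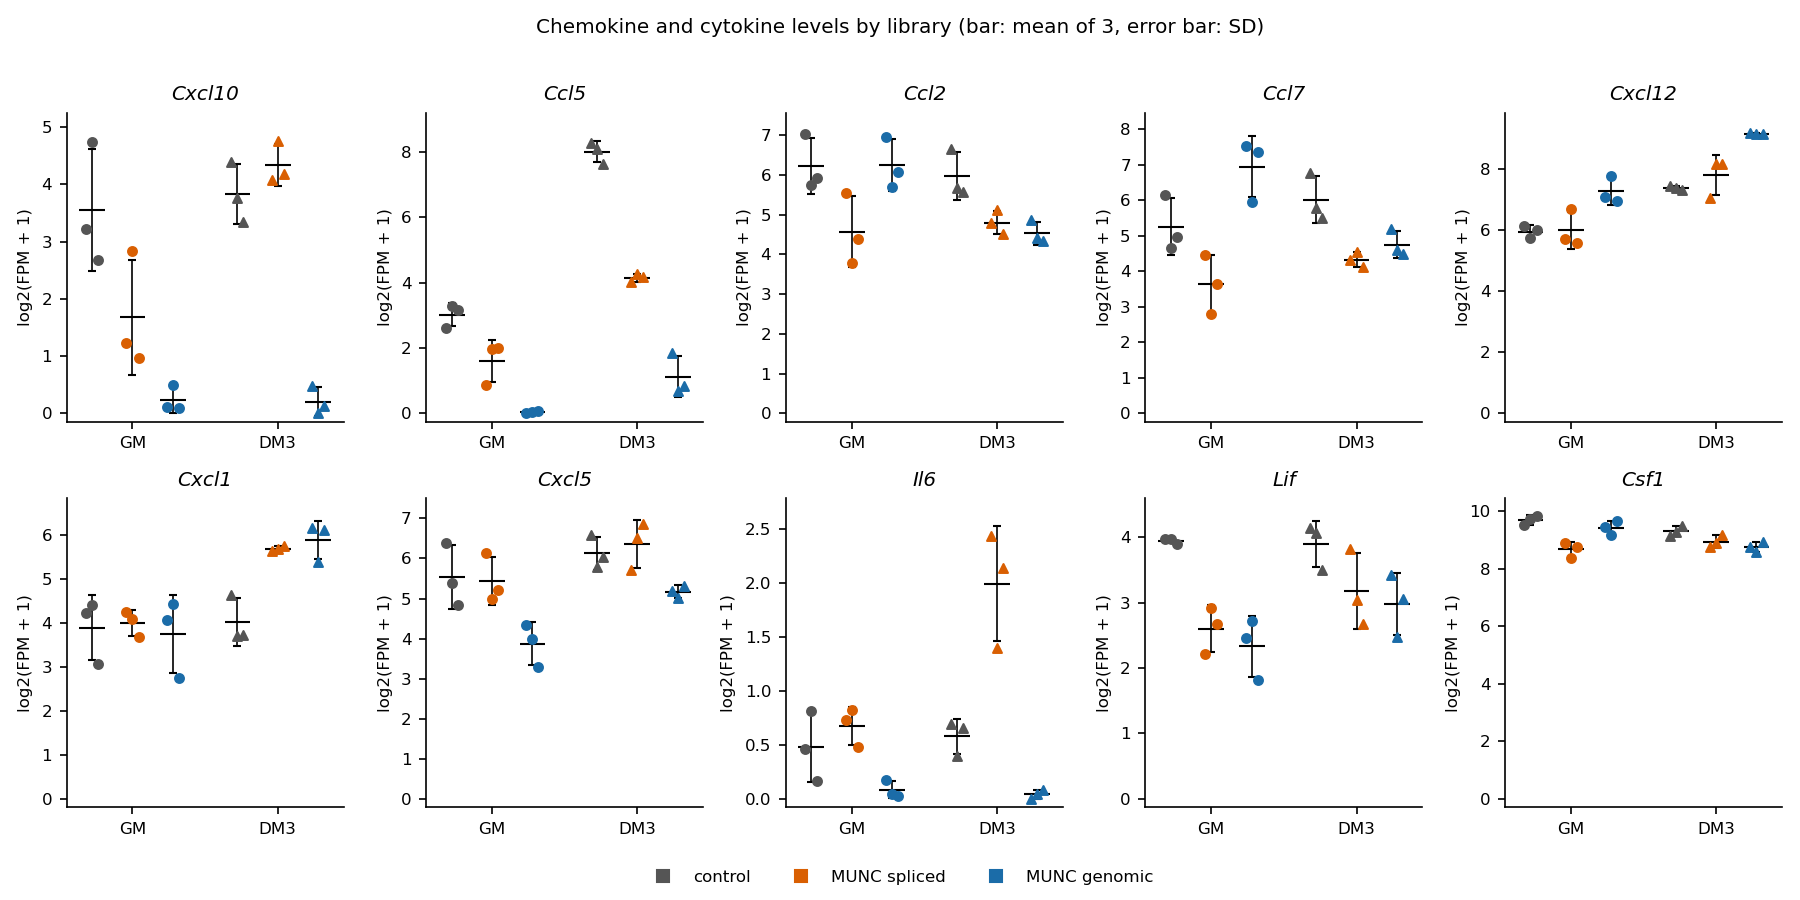
Level of each of the 10 genes as log2(FPM + 1), 1 panel per gene, in the 3 libraries of each line (colours) in GM and DM3, with 1 point per library, a bar at the mean and error bars for the SD. The control DM3 libraries stand highest in Ccl5 (200 to 312 FPM), and the MUNC genomic libraries lie near 0 in Cxcl10, Ccl5 (GM) and Il6.

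In control cells, the move from GM to DM3 raised 2 of the 10 genes, Ccl5 and Cxcl12, and lowered 0, where 58.2% of all tested genes were called (29.6% higher, 28.6% lower). Without replicate 1 of control GM 5 of the 10 were called there. In MUNC spliced cells 5 rose and 0 fell, where 35.6% of tested genes were called (17.2% higher, 18.4% lower). The 5 were Cxcl1, Cxcl10, Cxcl12, Ccl5 and Il6. In MUNC genomic cells 4 rose (Cxcl1, Cxcl5, Cxcl12, Ccl5) and 3 fell (Ccl2, Ccl7, Csf1), where 51.4% were called (26.3% higher, 25.1% lower). The median log2 change of the 10 genes was 0.20 in control, 1.11 in MUNC spliced and 0.31 in MUNC genomic cells, beside 0.02, -0.01 and 0.02 over all tested genes. Cxcl12 and Ccl5 were the genes that rose in all 3 lines.

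Against control in GM, 6 of the 10 genes fell and 0 rose in MUNC spliced cells, where 35.5% of tested genes were called (18.2% higher, 17.3% lower). The 6 were Cxcl10, Ccl2, Ccl5, Ccl7, Lif and Csf1. In MUNC genomic GM 4 fell (Cxcl5, Cxcl10, Ccl5, Lif) and 2 rose (Cxcl12, Ccl7), where 26.8% were called (12.2% higher, 14.5% lower). In DM3, 3 fell (Ccl2, Ccl5, Ccl7) and 2 rose (Cxcl1, Il6) in MUNC spliced cells, where 43.3% were called (22.3% higher, 21.0% lower). In MUNC genomic DM3 7 fell (Cxcl10, Ccl2, Ccl5, Ccl7, Il6, Lif, Csf1) and 2 rose (Cxcl1, Cxcl12), where 40.3% were called (19.3% higher, 20.9% lower). Cxcl5 was the 1 gene of the 10 not called there. The median log2 changes of the 10 genes in these 4 comparisons, in the same order, were -1.19, -0.33, -0.06 and -0.94, beside -0.02, -0.03, 0.01 and -0.01 over all tested genes. The count for MUNC genomic DM3 was lower, at 5 of 10, without replicate 1 of control DM3 or without replicate 2 of MUNC genomic DM3.

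**Figure D2:**
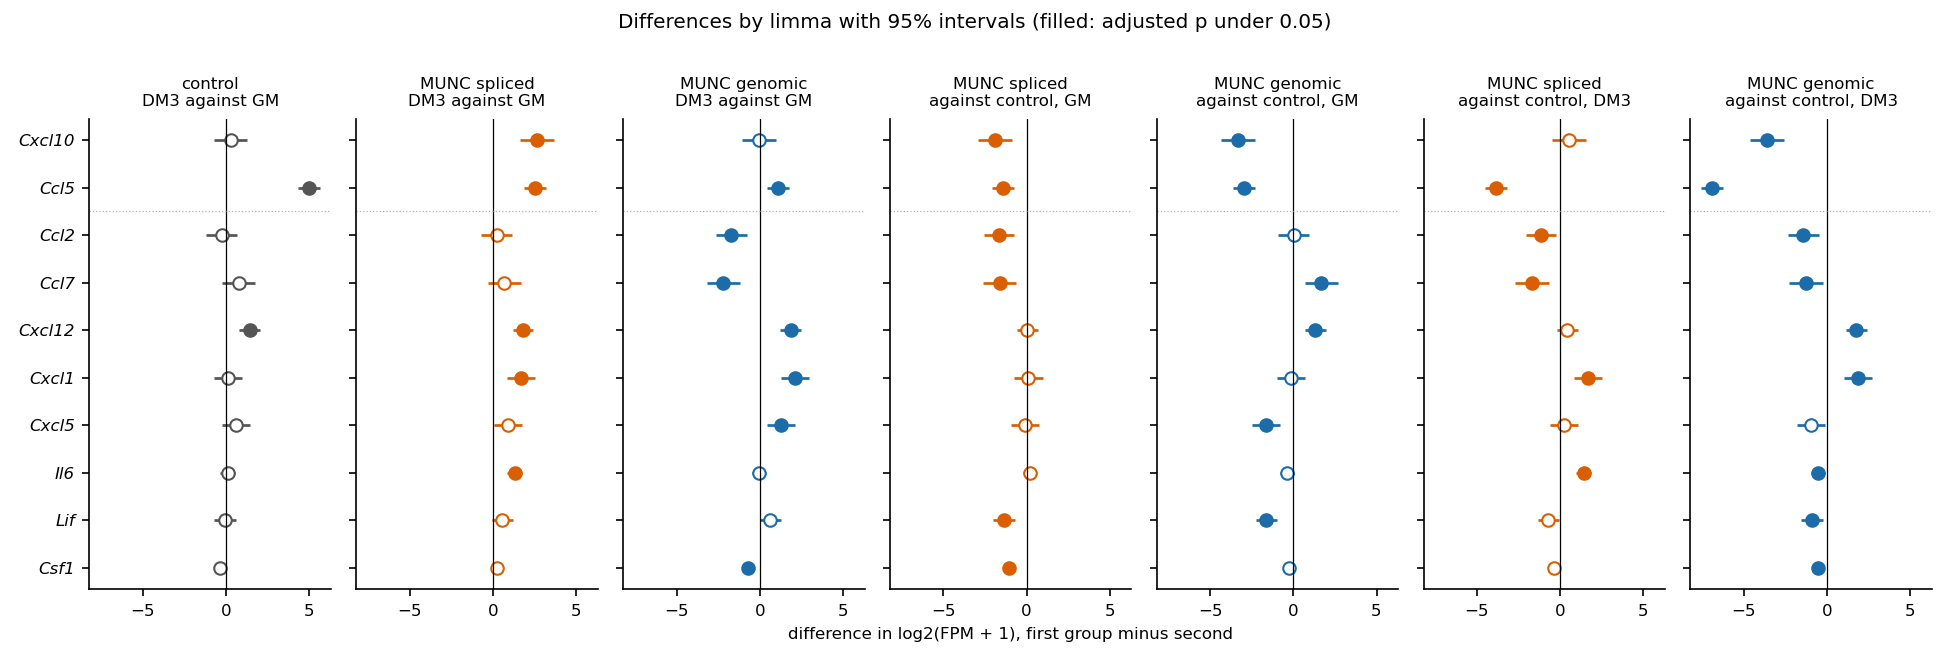
Difference of mean log2(FPM + 1) for each of the 10 genes (vertical axis) in the 7 comparisons of media or of a MUNC line with control (panels), with 95% confidence intervals from the limma fit and filled points where the adjusted p was under 0.05. The widest displacement is that of Ccl5 in MUNC genomic against control DM3, at -6.89.

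Cxcl10, the ligand of Cxcr3, lies at chr5:92346638-92348889 on the minus strand of GRCm38 (ENSMUSG00000034855). It was at 8.31, 25.9 and 5.44 FPM in replicates 1, 2 and 3 of control GM and at 20.0, 12.5 and 9.12 FPM in control DM3. The 2 groups overlapped, and replicate 2 of control GM was the highest of the 6 libraries. In MUNC spliced cells it was at 1.34, 6.12 and 0.956 FPM in GM and at 15.8, 26.1 and 17.1 FPM in DM3, with no overlap. MUNC genomic libraries held almost no Cxcl10, at 6, 24 and 3 reads in GM and 20, 0 and 5 reads in DM3. Cxcl10 thus rose with differentiation in MUNC spliced cells, 7.0-fold in mean FPM (log2 change 2.66, SE 0.48, adjusted p = 0.000555), and 17.1-fold without replicate 2 of MUNC spliced GM. It was not called in control cells (0.28, 95% interval -0.74 to 1.29, adjusted p = 0.647) or in MUNC genomic cells (-0.03).

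Against control, Cxcl10 fell 71.5-fold in MUNC genomic GM (log2 change -3.32, SE 0.48, adjusted p = 6.92e-05) and 84.4-fold in MUNC genomic DM3 (-3.62, adjusted p = 1.49e-05). The size of these folds rests on single libraries. In GM the fold was 177.5 without replicate 2 of MUNC genomic GM and 37.2 without replicate 2 of control GM. In DM3 it was 56.2 without replicate 2 of MUNC genomic DM3, and without replicate 1 of that group no fold can be given, since the others held 0 and 5 reads. In MUNC spliced GM it fell 4.71-fold (-1.88, adjusted p = 0.00641), although the groups overlapped. The fold was 11.5 without replicate 2 of MUNC spliced GM and 2.45 without replicate 2 of control GM. That call was lost in a fit of the 2 groups alone (adjusted p = 0.0623) and with DESeq2 (0.0622), and the authors' deposited table gives it an adjusted p of 0.0887. In MUNC spliced DM3 it overlapped control (0.51, 95% interval -0.51 to 1.52, adjusted p = 0.418). Art3, on the opposite strand of the same locus, was at or below 0.362 FPM in every library, a level like that of Cxcl10 in the MUNC genomic libraries. The strand setting of the counting is not given in the sources used here.

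Ccl5, which attracts T cells and monocytes, lies at chr11:83525778-83530518 on the minus strand (ENSMUSG00000035042). It went from 5.16, 8.71 and 7.99 FPM in control GM to 312, 273 and 200 FPM in control DM3. No library of one group reached the other, and the mean rose 35.9-fold (log2 change 4.99, SE 0.31, adjusted p = 1.29e-08). MUNC spliced cells held 0.808, 2.93 and 2.98 FPM in GM and 15.1, 18.2 and 17.0 FPM in DM3, a 7.49-fold rise (2.54, SE 0.31, adjusted p = 2.39e-05). MUNC genomic cells were near the floor in GM, with 1, 2 and 2 reads, and had 131, 40 and 40 reads in DM3 (2.59, 0.603 and 0.781 FPM). That rise was called (1.08, SE 0.31, adjusted p = 0.00856) but not without replicate 1 of MUNC genomic DM3 (0.71, adjusted p = 0.0579).

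Ccl5 was below control in all 4 comparisons of a MUNC line with control. The mean was 3.25-fold lower in MUNC spliced GM (log2 change -1.42, adjusted p = 0.00227) and 15.6-fold lower in MUNC spliced DM3 (-3.87, adjusted p = 7.44e-08). In MUNC genomic DM3 it was 197.5-fold lower (-6.89, SE 0.31, adjusted p = 3.56e-11), and 378.5-fold lower without replicate 1 of MUNC genomic DM3. In MUNC genomic GM the log2 change was -2.98 (adjusted p = 1.86e-06), and no fold is given because that group was near the floor of 3 reads.

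The pair did not move in a fixed ratio. Per kilobase, the ratio of Ccl5 to Cxcl10 was 0.789 to 3.45 over the control GM libraries and 36.7 to 51.4 over the control DM3 libraries. In MUNC spliced DM3 it was 1.64 to 2.33, below every control DM3 library. In DM3 the MUNC spliced cells thus overlapped control cells in Cxcl10 and were below all of them in Ccl5.

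**Figure D3:**
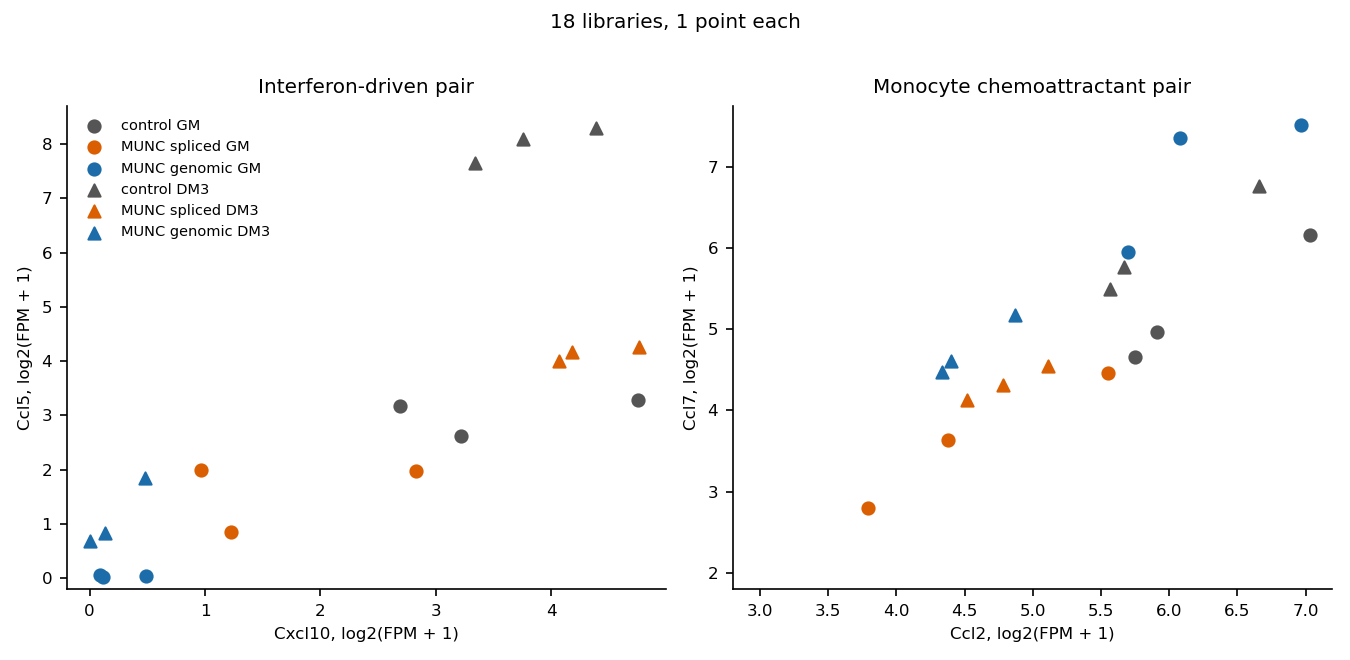
Ccl5 against Cxcl10 (left) and Ccl7 against Ccl2 (right), both axes as log2(FPM + 1), with 1 point per library, colour for the line and marker for the medium. On the left the control DM3 libraries lie above the MUNC spliced DM3 libraries in Ccl5 and overlap them in Cxcl10, and on the right the MUNC genomic GM libraries lie above the others of like Ccl2.

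The 24 interferon-stimulated genes listed beside this pair were all tested. In control cells 24 rose with differentiation (median log2 change 4.15) and in MUNC spliced cells 24 rose (median 5.22), while in MUNC genomic cells 10 rose (median 0.88). Ifit1, an antiviral effector, was at 63.9, 174 and 31.4 FPM in control GM and at 986, 526.7 and 381.7 FPM in control DM3. Irf7, which amplifies the interferon response, had a mean of 12 FPM in control GM. Its means in DM3 were 573 FPM in control, 177 FPM in MUNC spliced and 5.42 FPM in MUNC genomic cells. As with Cxcl10, replicate 2 of control GM was the highest of its group in Ifit1, Irf7 (28.3 FPM) and Isg15 (55.5 FPM). Without that library the Cxcl10 change from control GM to DM3 was 0.88 (adjusted p = 0.0973). Ifnb1, the gene of interferon beta, had 9, 5 and 10 reads in control DM3, 7, 9 and 10 reads in MUNC spliced DM3 and 0 reads in all 3 MUNC genomic DM3 libraries, which allows up to 3 reads each. It was too low to be tested.

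Against control, 15 of the 24 genes fell in MUNC spliced GM (median log2 change -1.63), led by Bst2 (-2.45), Rsad2 (-2.42) and Isg15 (-2.24). In MUNC genomic GM 19 fell (median -2.21), led by Ifit1 (-5.43). In MUNC spliced DM3 7 fell (median -0.57): Irf1, Irf7, Ifit2, Rsad2, Oas3, Oasl1 and Bst2. Rsad2 was at 207, 114 and 76.7 FPM in control DM3 and at 5.34, 17.8 and 5.68 FPM in MUNC spliced DM3 (-3.73, adjusted p = 1.34e-05). In MUNC genomic DM3 23 fell (median -5.79), led by Ifi44 (-8.63), Oas2 (-8.13) and Oas3 (-8.02), and Irf1 was the 1 not called (-0.03). No gene of the list rose in any of these 4 comparisons. The background shares are those given above for each comparison.

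**Figure D4:**
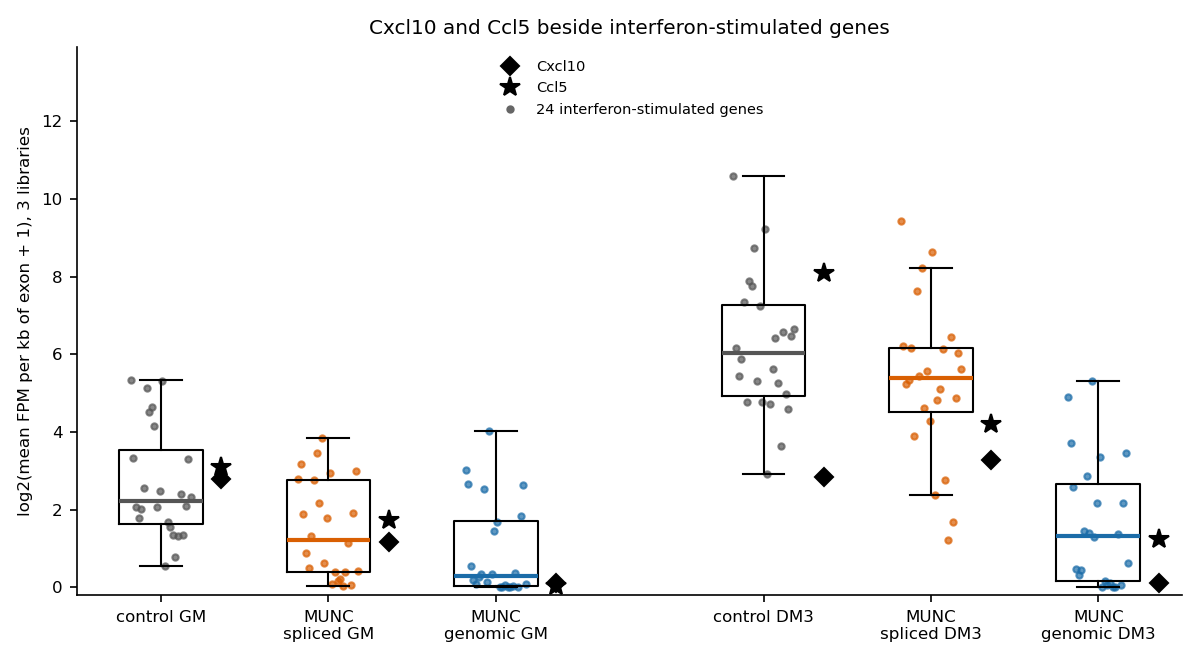
Level per kilobase, as log2(mean FPM per kb of exon + 1) over 3 libraries, of 24 interferon-stimulated genes (points; boxes show the median and quartiles) beside Cxcl10 (diamond) and Ccl5 (star) in each group. In MUNC spliced DM3 both chemokines sit below the lower quartile of the 24 genes, and in control DM3 Cxcl10 does while Ccl5 is above the upper quartile.

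Promoter sequence was taken from RefSeq on GRCm38.p6, which had an entry for 6 of the 10 genes: Cxcl1, Cxcl10, Cxcl12, Il6, Lif and Csf1. For Cxcl5, Ccl2, Ccl5 and Ccl7 there was no entry. The 250 bases before each start were searched on both strands for the NF-kB consensus and for the core of the interferon-stimulated response element, written here as GAAA, any 2 bases and GAAA. Of 32851 promoter windows of this length, 3.90% held the first, 2.98% held the second and 0.122% held both. The 3 sequences below are that of Cxcl10, which held both motifs, and those of Cxcl1 and Il6, which held the NF-kB consensus alone. That of Csf1 also held this consensus alone and is not shown. Capitals mark the matches.

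Cxcl10, chr5:92348890-92349139, minus strand: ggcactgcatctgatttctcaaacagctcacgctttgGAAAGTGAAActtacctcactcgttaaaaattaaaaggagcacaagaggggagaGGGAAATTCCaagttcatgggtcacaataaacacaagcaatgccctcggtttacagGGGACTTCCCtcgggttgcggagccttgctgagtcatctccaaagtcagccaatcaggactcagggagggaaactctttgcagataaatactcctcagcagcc

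Cxcl1, chr5:90890995-90891244, plus strand: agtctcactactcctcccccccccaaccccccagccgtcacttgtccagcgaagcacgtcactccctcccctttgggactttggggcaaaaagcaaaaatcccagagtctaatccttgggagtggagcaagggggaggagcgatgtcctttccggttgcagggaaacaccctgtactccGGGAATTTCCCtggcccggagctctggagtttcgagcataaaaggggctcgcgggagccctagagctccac

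Il6, chr5:30012864-30013113, plus strand: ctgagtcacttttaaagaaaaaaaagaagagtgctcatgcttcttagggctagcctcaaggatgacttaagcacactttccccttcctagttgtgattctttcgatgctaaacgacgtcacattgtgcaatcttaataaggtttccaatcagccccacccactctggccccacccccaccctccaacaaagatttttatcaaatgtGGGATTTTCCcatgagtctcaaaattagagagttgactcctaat

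The Cxcl10 window held the interferon core once, 213 to 204 bases before the start, and the NF-kB consensus at 159 to 150 and at 103 to 94 bases before it. Of the 6 windows it was the 1 with a match to the interferon core. The Cxcl1 window held 2 overlapping NF-kB matches, 1 on each strand, at 71 to 62 and 70 to 61 bases before the start. The Il6 window held 1, at 44 to 35 bases before the start. The Csf1 window held 1 on the opposite strand at 154 to 145 bases, and those of Cxcl12 and Lif held neither motif. A match describes letters only and was not tested for binding.

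Cxcl1 and Cxcl5, both ligands of Cxcr2, lie on the plus strand of chromosome 5 at chr5:90891241-90893115 (ENSMUSG00000029380) and chr5:90759360-90761624 (ENSMUSG00000029371). Cxcl1 was at 17.6, 20.1 and 7.30 FPM in control GM and at 23.9, 11.9 and 12.2 FPM in control DM3, and these groups overlapped (log2 change 0.13, adjusted p = 0.81). In DM3 it was at 48.7, 49.8 and 52.5 FPM in MUNC spliced cells and at 70.3, 40.3 and 67.6 FPM in MUNC genomic cells. All 6 of these libraries were above every control library. The rise over control DM3 was 3.15-fold in MUNC spliced (1.67, SE 0.40, adjusted p = 0.00323) and 3.71-fold in MUNC genomic cells (1.86, SE 0.40, adjusted p = 0.0015). In GM no difference between the 3 lines was called: the mean was 15 ± 6.77 FPM in control, 15.2 ± 3.13 FPM in MUNC spliced and 14.0 ± 7.59 FPM in MUNC genomic cells. Differentiation therefore raised Cxcl1 in the MUNC lines, 3.31-fold in MUNC spliced (1.68, adjusted p = 0.00425) and 4.23-fold in MUNC genomic cells (2.12, adjusted p = 0.000384).

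Cxcl5 did not follow Cxcl1. In MUNC genomic GM it was at 19.3, 15 and 8.72 FPM, below the 83.4, 40.9 and 27.4 FPM of control GM without overlap (3.53-fold, log2 change -1.66, adjusted p = 0.00484). In MUNC genomic DM3 it was at 35.3, 31.3 and 39.0 FPM, below the 95.1, 54.0 and 64.2 FPM of control DM3, also without overlap. That difference was not called (-0.96, SE 0.39, adjusted p = 0.0632) but was with the replicate number as a block (adjusted p = 0.0441), and the authors' deposited table gives it -1.0 with an adjusted p of 5.59e-06. MUNC spliced cells overlapped control, with a mean of 45.3 ± 20.6 FPM in GM and of 85.8 ± 32.3 FPM in DM3. Cxcl5 rose with differentiation in MUNC genomic cells, 2.46-fold (1.3, adjusted p = 0.0114, and 0.0663 without replicate 3 of MUNC genomic GM). Per kilobase, the ratio of Cxcl5 to Cxcl1 was 4.01 to 5.30 in control DM3 and 0.506 to 0.784 in MUNC genomic DM3, where Cxcl1 was thus the higher of the pair.

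Cxcl12, the ligand of Cxcr4 and of the scavenger Ackr3, lies at chr6:117168535-117181367 on the plus strand (ENSMUSG00000061353). It was at 68.7, 52.3 and 63.4 FPM in control GM and at 172, 168 and 160 FPM in control DM3. MUNC genomic cells had 135, 220 and 124 FPM in GM and 581, 565 and 566 FPM in DM3. MUNC genomic libraries were above all control libraries of the same medium, and MUNC genomic DM3 held the highest values of the 6 groups. Cxcl12 rose with differentiation 2.71-fold in control (log2 change 1.43, SE 0.30, adjusted p = 0.000634), 3.55-fold in MUNC spliced (1.82, adjusted p = 0.000269) and 3.57-fold in MUNC genomic cells (1.88, adjusted p = 7.89e-05). Against control it rose 2.60-fold in MUNC genomic GM (1.33, adjusted p = 0.00323) and 3.42-fold in MUNC genomic DM3 (1.77, adjusted p = 0.000161). MUNC spliced cells had 51.4, 102 and 46.8 FPM in GM and 133, 290 and 289 FPM in DM3, and neither differed from control by the test (0.04 and 0.42).

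Ccl2 and Ccl7, ligands of Ccr2 that draw monocytes, are neighbours on the plus strand of chromosome 11, at chr11:82035571-82037453 (ENSMUSG00000035385) and chr11:82045712-82047525 (ENSMUSG00000035373). Ccl2 was at 130, 52.8 and 59.2 FPM in control GM and at 45.8, 12.9 and 19.8 FPM in MUNC spliced GM, a 3.08-fold fall without overlap (log2 change -1.66, SE 0.43, adjusted p = 0.00767, against 0.0549 in the authors' deposited table). Without replicate 1 of MUNC spliced GM the fold was 4.93. In MUNC genomic GM it was at 124, 50.9 and 66.8 FPM, close to control (0.02, adjusted p = 0.988). In DM3 both MUNC lines were below control, which had 100, 49.8 and 46.5 FPM. MUNC spliced DM3 had 26.6, 33.5 and 21.9 FPM (2.40-fold lower, -1.16, adjusted p = 0.0399) and MUNC genomic DM3 had 28.2, 20.2 and 19.1 FPM (2.91-fold lower, -1.43, adjusted p = 0.0151). Of the 6 fits that leave out 1 library, 4 lost the first call (adjusted p up to 0.172) and 2 lost the second, and the first was also lost with no filter (0.0861). The authors' deposited table gives the first an adjusted p of 0.000177 and the second one of 0.00146. Gm17268, which overlaps Ccl2, had 0 reads in every library.

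Ccl7 fell in MUNC spliced cells and rose in MUNC genomic GM. It was at 70.2, 24.2 and 30.2 FPM in control GM, at 21.1, 5.96 and 11.5 FPM in MUNC spliced GM and at 182, 60.8 and 163 FPM in MUNC genomic GM. Only the lowest MUNC genomic library lay within the control range. The fall in MUNC spliced GM was 3.24-fold (log2 change -1.62, adjusted p = 0.0143), and the rise in MUNC genomic GM was 3.26-fold (1.68, adjusted p = 0.0148). Without replicate 1 of control GM the fall was 2.12-fold and the rise 4.97-fold. Of 6 fits that leave out 1 library, 2 lost the first call and 4 lost the second (adjusted p up to 0.0747), and the second was also lost in a fit of the 2 groups alone (0.0592). The authors' deposited table gives the fall an adjusted p of 0.0603 and the rise one of 0.0352.

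In DM3, Ccl7 was at 108, 53.5 and 44.3 FPM in control cells, at 18.8, 22.3 and 16.5 FPM in MUNC spliced cells and at 35.2, 23.4 and 21.2 FPM in MUNC genomic cells. Both MUNC lines were below every control library. The fall was 3.56-fold in MUNC spliced (-1.68, adjusted p = 0.00909) and 2.57-fold in MUNC genomic cells (-1.26, adjusted p = 0.0447, lost with no filter at 0.0954 and in 4 of 6 fits that leave out 1 library). The authors' deposited table gives the fall in MUNC genomic DM3 an adjusted p of 0.0154. In MUNC genomic cells differentiation thus lowered both neighbours, Ccl7 5.09-fold (-2.19, adjusted p = 0.00117) and Ccl2 3.57-fold (-1.71, adjusted p = 0.00367). Neither was called in control or MUNC spliced cells. The 2 genes also changed their ratio with line and medium. Per kilobase Ccl7 was 0.652 to 0.768 of Ccl2 in control GM, 0.653 to 0.822 in MUNC spliced GM and 1.70 to 3.47 in MUNC genomic GM. In DM3 the ratio was 1.35 to 1.53 in control, 0.947 to 1.07 in MUNC spliced and 1.57 to 1.77 in MUNC genomic cells.

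Replicate 1 held the highest Ccl2, Ccl7 and Cxcl5 of each line in GM, and replicate 2 the highest Cxcl10. The replicate block takes that shared order into account, and with it 0 of the calls of the 10 genes were lost. In DM3, replicate 1 was highest for Ccl2 and Ccl7 in control and MUNC genomic cells, while MUNC spliced cells had their highest in replicate 2.

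Il6 lies at chr5:30013114-30019981 on the plus strand (ENSMUSG00000025746) and was low throughout. It had 22, 43 and 8 reads in control GM (0.376, 0.761 and 0.123 FPM) and was at 0.615, 0.316 and 0.571 FPM in control DM3. MUNC spliced DM3 stood above all other groups, with 232, 94 and 187 reads (4.4, 1.64 and 3.38 FPM). That is 6.28-fold above control DM3 (log2 change 1.41, SE 0.21, adjusted p = 4.51e-05) and 5.17-fold above MUNC spliced GM (1.31, SE 0.21, adjusted p = 0.000196). The highest of these libraries, replicate 1, is also the one highest in Myog. Replicates 2 and 3 did not keep this order, with Il6 lower but Myog higher in replicate 2 (52.6 against 41.0 FPM), and a link was not tested. MUNC genomic libraries had 9, 2 and 1 reads of Il6 in GM and 0, 2 and 3 reads in DM3. Il6 fell there in DM3 (-0.54, adjusted p = 0.0468), a call lost with no filter (0.084) and in 5 of 6 fits that leave out 1 library. The log2(FPM + 1) scale understates changes this near 0. The authors' deposited table gives Il6 in MUNC genomic against control DM3 -4.06 with an adjusted p of 4.02e-05. In GM it was not called on this scale (-0.40, adjusted p = 0.172) but was by edgeR on the recovered reads (-2.62, adjusted p = 0.0145) and by DESeq2 (-2.66, adjusted p = 0.00213).

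Lif, a cytokine of the Il6 family, lies at chr11:4257557-4272514 on the plus strand (ENSMUSG00000034394). It was at 14.7, 14.7 and 13.9 FPM in control GM, at 3.66, 6.54 and 5.37 FPM in MUNC spliced GM and at 4.52, 5.55 and 2.52 FPM in MUNC genomic GM. All 6 MUNC libraries were below all 3 control libraries. The fall was 2.78-fold in MUNC spliced (log2 change -1.34, SE 0.31, adjusted p = 0.00287) and 3.44-fold in MUNC genomic cells (-1.62, SE 0.31, adjusted p = 0.00088). In DM3 control cells had 16.6, 15.7 and 10.2 FPM and MUNC genomic cells 9.68, 4.53 and 7.28 FPM, 1.98-fold lower (-0.92, adjusted p = 0.0242, lost with no filter at 0.0564 and in 3 of 6 fits that leave out 1 library). MUNC spliced DM3, at 13.1, 7.25 and 5.39 FPM, overlapped control and was not called (-0.72, adjusted p = 0.0679), but was with the replicate block (adjusted p = 0.0454). The authors' deposited table gives Lif an adjusted p of 0.00149 in MUNC genomic DM3 and of 0.0711 in MUNC spliced DM3.

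Csf1, the macrophage growth factor, lies at chr3:107741048-107760469 on the minus strand (ENSMUSG00000014599). It was at 727, 849 and 921 FPM in control GM and at 477, 328 and 427 FPM in MUNC spliced GM, a 2.03-fold fall without overlap (log2 change -1.03, SE 0.17, adjusted p = 0.000189). MUNC genomic GM, at 691, 583 and 811 FPM, overlapped control (-0.27, adjusted p = 0.266). In DM3 control cells had 561, 624 and 721 FPM and MUNC genomic cells 428, 382 and 485 FPM, 1.47-fold lower (-0.56, adjusted p = 0.0138, lost in 2 of 6 fits that leave out 1 library). MUNC spliced DM3, at 434, 473 and 578 FPM, was not called against control (-0.36, adjusted p = 0.0903, and 0.0227 with the replicate block). The authors' deposited table gives Csf1 an adjusted p of 0.000495 in MUNC genomic DM3 and of 0.103 in MUNC spliced DM3. Differentiation lowered Csf1 1.61-fold in MUNC genomic cells (-0.68, adjusted p = 0.00284). In control cells the 2 media did not overlap, yet the change missed the threshold (-0.39, adjusted p = 0.0541), which it passed with the replicate block (0.0119) and in the authors' deposited table (-0.42, adjusted p 0.0307).

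Whether differentiation acted differently in a MUNC line than in control was tested as an interaction. For MUNC spliced, the test called 3 of the 10 genes (2 higher, 1 lower), where 14.4% of tested genes were (7.43% higher, 6.94% lower), and the median was 0.56 for the 10 genes against 0.00 for all tested. Cxcl10 (2.38, SE 0.68, adjusted p = 0.029) and Il6 (1.21, SE 0.29, adjusted p = 0.0132) rose more than in control, and Ccl5 rose less (-2.45, SE 0.44, adjusted p = 0.00284). The Cxcl10 call was lost in 6 of 12 fits that leave out 1 library, with a pseudocount of 0.1 FPM (adjusted p = 0.0675), with no filter (0.0701), with only the compared groups (0.0747), with edgeR (0.0841) and with DESeq2 (0.167). The Il6 call was lost with a pseudocount of 0.1 FPM (0.0836), edgeR (0.0951) and DESeq2 (0.0742). With the replicate block 5 were called, Cxcl1 (0.0309) and Csf1 (0.0125) being added. For MUNC genomic, it called 3 of the 10 genes (1 higher, 2 lower), where 8.81% of tested genes were (3.56% higher, 5.25% lower), with medians of -0.22 and 0.03. Cxcl1 rose more than in control (2.00, SE 0.57, adjusted p = 0.0367), a call lost with edgeR (0.058), no filter (0.086), only the compared groups (0.078) and in 7 of 12 fits that leave out 1 library. The fall of Ccl7 in MUNC genomic cells differed from its uncalled change in control cells (0.75, adjusted p = 0.187) by -2.94 (SE 0.67, adjusted p = 0.0111). The replicate block added Ccl2 (0.0173). Ccl5 rose less on the log2(FPM + 1) scale (-3.91, SE 0.44, adjusted p = 3.45e-05), a call lost with a pseudocount of 0.1 FPM (-1.96, adjusted p = 0.0828). On the scale of ratios the difference was near 0 and turned its sign, at 0.27 with edgeR (adjusted p = 0.917) and 0.35 with DESeq2 (adjusted p = 0.892).

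Spliced and genomic MUNC lines were also set against each other. In GM MUNC spliced cells differed in 8 of the 10 genes, with 4 above and 4 below MUNC genomic cells, where 35.8% of tested genes were (19.9% higher, 16.0% lower), and the medians were 0.26 and 0.02. Ccl7 differed most, being lower in MUNC spliced GM (-3.31, SE 0.48, adjusted p = 4.76e-05), and Ccl2 (-1.67), Cxcl12 (-1.29) and Csf1 (-0.76) were lower too. Cxcl5 (1.57), Ccl5 (1.56), Cxcl10 (1.44) and Il6 (0.59) were higher. The Il6 call was lost in 5 of 6 fits that leave out 1 library and the Cxcl10 call in 3 of 6, and both were lost with no filter (adjusted p = 0.0624 and 0.0669). In DM3 5 were called, 4 higher and 1 lower, where 44.2% were (23.4% higher, 20.8% lower), and the medians were 0.23 and 0.03. Cxcl10 (4.13, adjusted p = 3.04e-06), Ccl5 (3.03, adjusted p = 7.5e-07), Il6 (1.95, adjusted p = 1.04e-06) and Cxcl5 (1.19, adjusted p = 0.0218, lost in 4 of 6 such fits and with no filter at 0.051) were higher in MUNC spliced cells, and Cxcl12 was lower (-1.35, adjusted p = 0.00149). Cxcl1, Ccl2, Ccl7, Lif and Csf1 were not called there.

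Of 15 receptors for these ligands, 6 were high enough to be tested: Cxcr4, Ackr3, Il6st, Lifr, Osmr and Il6ra. Most chemokine receptors were at or near 0. Ccr1 and Ackr1 had 0 reads in all 18 libraries, Cxcr3 was at most 0.0169 FPM, Ccr2 0.0181 FPM, Cxcr2 0.0859 FPM and Csf1r 0.252 FPM. At these depths Cxcr3, Ccr2 and Csf1r, receptors of Cxcl10, Ccl2 and Csf1, were thus not detectable or barely so in the cells that carried the ligands' transcripts. Against control, 4 of the 6 rose in MUNC spliced GM, 4 in MUNC genomic GM, 4 in MUNC spliced DM3 and 3 in MUNC genomic DM3, where Ackr3 fell, beside 18.2%, 12.2%, 22.3% and 19.3% of all tested genes called higher. Differentiation raised 3 and lowered 1 in control cells, raised 3 and lowered 1 in MUNC spliced cells, and raised 4 and lowered 1 in MUNC genomic cells, beside 58.2%, 35.6% and 51.4% of all tested genes called in either direction. The lowered gene was Ackr3 in each line.

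Cxcr4 was at 0.123 to 0.341 FPM in control GM and 0.258 to 0.533 FPM in control DM3. MUNC genomic DM3, the group with the highest Cxcl12, also had the highest Cxcr4 mean, at 8.05, 10.6 and 8.74 FPM (log2 change against control 2.90, SE 0.31, adjusted p = 1.48e-06). It rose with differentiation in MUNC genomic cells (1.77, adjusted p = 0.000209) and more than in control (1.60, adjusted p = 0.0316). MUNC spliced DM3 had 8.16, 2.91 and 2.31 FPM (1.86, adjusted p = 0.000173). Ackr3, which scavenges Cxcl12, was lowest in MUNC genomic DM3, at 5.92, 3.96 and 3.22 FPM against 7.36, 9.57 and 9.10 FPM in control DM3 (-0.87, adjusted p = 0.0128).

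Lifr, the receptor chain that binds Lif, was at 9.65, 10.4 and 7.99 FPM in control GM and at 74.9, 100.3 and 45.0 FPM in MUNC spliced GM (log2 change 2.78, SE 0.27, adjusted p = 8.85e-07). In DM3 it was at 20.9, 23.3 and 26.3 FPM in control and at 222, 194 and 286 FPM in MUNC spliced cells (3.25, SE 0.27, adjusted p = 9.69e-08). MUNC genomic cells had 15.3 to 26.9 FPM in GM (1.16, adjusted p = 0.004) and 33.5 to 57.0 FPM in DM3 (0.81, adjusted p = 0.0234). In GM, MUNC spliced cells and MUNC genomic cells thus each had less Lif and more Lifr than control. Il6st, shared by Il6 and Lif, rose in both MUNC lines in both media by 0.33 to 0.48. Osmr, the partner of Il6st for oncostatin M, rose with differentiation in control cells from a mean of 17.8 to one of 85.1 FPM (2.24, adjusted p = 4.46e-06). Il6ra was not called in any of these comparisons, at group means of 6.96 to 11.1 FPM.

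**Figure D5:**
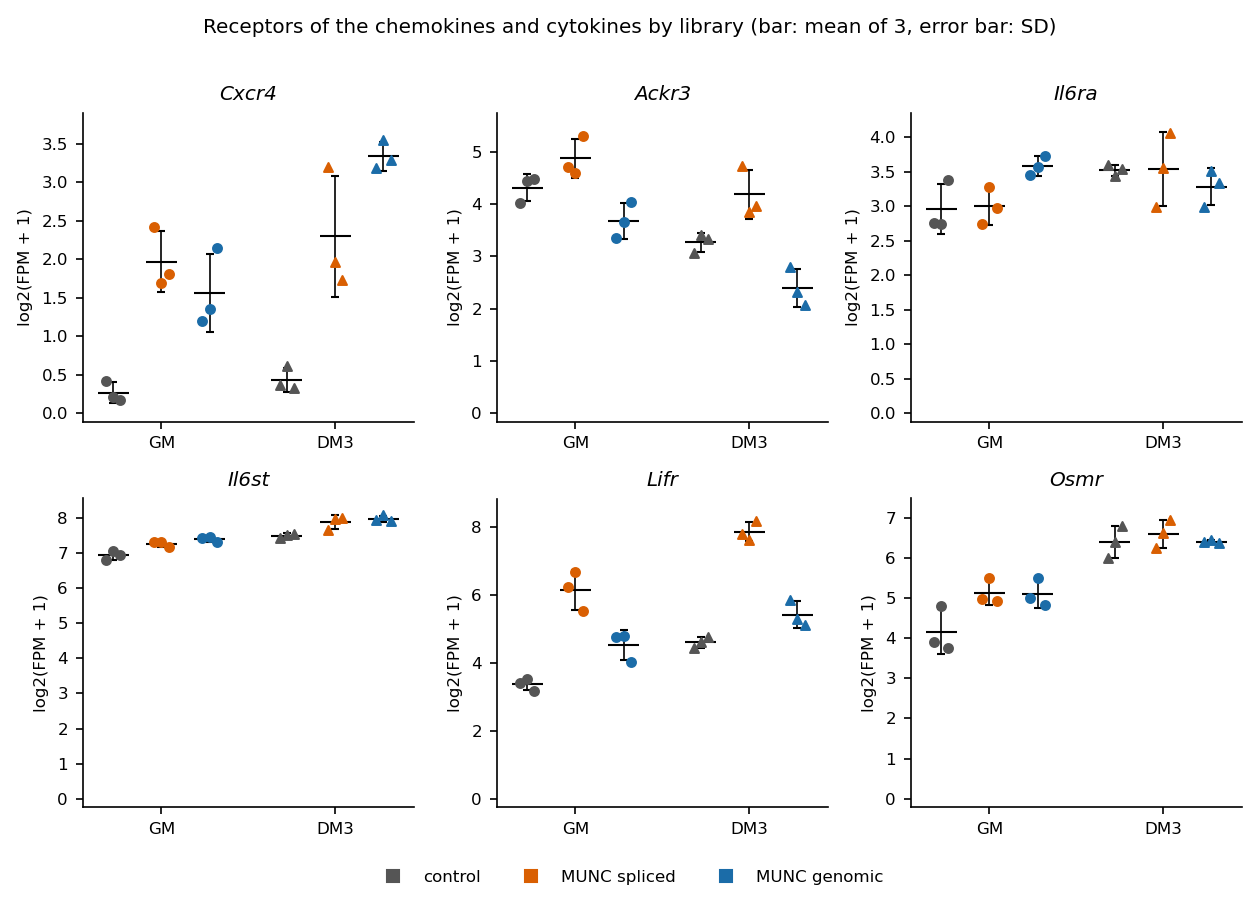
Level as log2(FPM + 1), 1 panel per gene, of the 6 receptors that were tested, with 1 point per library, a bar at the mean and error bars for the SD. Lifr is highest in MUNC spliced DM3, at 194 to 286 FPM, and Cxcr4 stays below 1 FPM in every control library.

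Of 19 further chemokine genes 5 were tested. In control cells, where 29.6% of tested genes were called higher, 3 of the 5 rose with differentiation, among them Ccl8, a monocyte chemokine, from 0.632, 0.283 and 0.231 FPM to 15.9, 19.0 and 17.9 FPM (log2 change 3.76, adjusted p = 1.22e-08), and Ccl9 (2.15, adjusted p = 0.0117). Against control DM3 Ccl8 fell in both MUNC lines, to 4.54 ± 1.82 FPM in MUNC spliced (-1.80, adjusted p = 1.07e-05) and 2.19 ± 0.498 FPM in MUNC genomic cells (-2.55, adjusted p = 1.6e-07). Cxcl9, which shares the receptor Cxcr3 with Cxcl10, was at 1.11, 0.631 and 0.70 FPM in control DM3 and at 6.15, 11.2 and 11.8 FPM in MUNC spliced DM3 (2.52, adjusted p = 6.67e-09), with 1 read in the 3 MUNC genomic DM3 libraries together. So in MUNC spliced DM3 Cxcl9 was above control, Cxcl10 was not called and Ccl5 was below it. Cx3cl1, a chemokine tethered to the membrane, averaged 25.6 FPM in MUNC genomic DM3 and 3.54 FPM in control DM3 (2.57, adjusted p = 9.21e-09).

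Among 19 further cytokines 11 were tested. In control cells 7 rose and 1 fell with differentiation (58.2% of tested genes called), led by Il15 from 0.614 to 6.09 FPM (log2 change 2.11, adjusted p = 4.27e-06), Tslp (1.58) and Tnfsf10 (1.37). In MUNC genomic DM3 against control 6 fell and 2 rose (40.3% called), and the largest falls were those of Il15 (-2.39), Tslp (-2.00) and Tnfsf10 (-1.88). In MUNC spliced DM3 5 fell and 2 rose (43.3% called). Kitl, the ligand of Kit, was among those that rose in MUNC spliced cells, at 64.0, 34.6 and 32.8 FPM in control DM3 and 198.5, 247 and 268.5 FPM in MUNC spliced DM3 (2.47, adjusted p = 6.82e-07). In GM 3 rose and 4 fell in each MUNC line against control (35.5% called in MUNC spliced, 26.8% in MUNC genomic cells), and Il33 fell in both (-1.33 in MUNC spliced, -1.96 in MUNC genomic).

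Of 23 genes of the NF-kB, C/EBP and STAT3 axis, 21 were tested. In control cells 15 rose and 2 fell with differentiation (58.2% of tested genes called), led by Stat3 (88.5 to 308 FPM, log2 change 1.78, adjusted p = 4.43e-07), Ikbke (1.59) and Socs3 (1.18). In MUNC spliced cells 7 rose and 0 fell (35.6% called), and in MUNC genomic cells 14 rose and 1 fell (51.4% called). Against control 4 rose and 2 fell in MUNC spliced GM (35.5% called), 1 rose and 3 fell in MUNC genomic GM (26.8%), 3 rose and 5 fell in MUNC spliced DM3 (43.3%), and 3 rose and 3 fell in MUNC genomic DM3 (40.3%). Cebpd, a transcription factor of the acute phase response, rose in MUNC spliced cells in GM (0.76) and DM3 (0.83, adjusted p = 0.00573) and fell in MUNC genomic cells in GM (-1.06) and DM3 (-0.80, adjusted p = 0.00763). Il6 was also above control in MUNC spliced DM3 and below it in MUNC genomic DM3, but by the limma fit it was not called in GM in either line. A link between Cebpd and Il6 was not tested. Tnfaip3, which restrains NF-kB, fell in MUNC genomic cells in GM (-0.86) and DM3 (-0.99).

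Across the 18 libraries, which form 6 groups of 3 and so are not independent points, the 10 genes fell into no single pattern. The highest Pearson r of log2(FPM + 1) between them were 0.86 for Ccl2 and Ccl7, 0.77 for Cxcl10 and Ccl5, and 0.74 for Ccl2 and Csf1, and the lowest was -0.55 for Cxcl1 and Csf1. Among all tested genes, those most like Cxcl10 were Ifit1 (r = 0.95), Ifih1 (0.94) and Zfp709 (0.94). Those most like Ccl5 were Bloc1s6 (0.98), Oasl1 (0.97) and Rnf114 (0.96), so each of the interferon-driven pair had at least 1 interferon-stimulated gene among its 3 nearest. Cxcl12 was nearest to C1s2 (0.96), C1s1 (0.96) and Pttg1ip (0.95), of which the first and second are complement proteases. Il6 was nearest to Aldh1l1 (0.97), Nov (0.95) and Klf15 (0.92), which were low like Il6 itself. Their means over the 18 libraries were 0.920, 0.531 and 0.160 FPM. Csf1 was nearest to Hmga2 (0.93), Cxcl1 to E130311K13Rik (0.93) and Ccl7 to Ccl2. These r are descriptions over libraries that share groups and carry no test.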

How the data were processed

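The authors deposited 1 table of normalized signal for 35275 mouse genes in 18 polyA libraries, given as FPM (fragments scaled for library size). Per the submitters' processing notes, STAR, HTSeq, DESeq2 and mm10 were used, and versions, annotation and strand setting are not given in the sources used here. Every value was a whole multiple of a step of its library, and 100% of values gave whole reads within 0.05 of a read. FPM summed to 946834 to 1048477 per library, and depth was 38416702 to 68788327 reads, which sets the counting error. Floors and limits cover counting error only, since PCR copies of a molecule cannot be told apart here. For 5 comparisons the authors' own results were deposited too, as log2 fold changes, errors, p-values and adjusted p-values per the file headers. The score columns the authors deposited there (mean count and statistic) were not used.

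Tests used limma 3.58.1 (R 4.3.3) on log2(FPM + 1), with eBayes and a mean-variance trend. The 13869 genes tested reached 0.5 FPM in 3 or more libraries. A single fit to the 18 libraries gave 6 group means and 12 residual degrees of freedom, with no term for the replicate, from which 11 comparisons were taken. Tests are two-sided. The fitting scripts were tested on simulated data. Alternatives were a pseudocount of 0.1 FPM, no filter, only the compared groups, FPM rescaled to equal sums, a replicate block, leaving out each library, and edgeR 4.0.16 and DESeq2 1.42.0 on the recovered reads. The 10 genes and all gene lists were chosen with earlier results of these data known. From each list, at most 3 called genes per comparison were named, those that changed most, without overlap of the groups and with a mean of 1 FPM or more in the higher one, beside the 10 genes, all receptors and the 3 most alike genes. Ifnb1, Cd14, Acta1, Myh3, Des, Cdh15, Myf5, Col1a1, Col3a1, Irf7, Isg15, Rsad2 and Bst2 were in places named outside that rule, after their values were seen, as was each gene named to complete a count. An item of the receptor list is not reported here.

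Replicate numbers come from the titles. Same-numbered libraries deviated together, with every correlation over 0.1, in 6 of the 9 comparisons of 2 groups. The lowest correlation in these was 0.171, in MUNC spliced against control DM3. In the comparisons of lines in GM the correlations were higher, at 0.456 to 0.727. Not every correlation passed 0.1 in MUNC spliced DM3 against GM (lowest 0.0163), MUNC genomic DM3 against GM (0.0531) or MUNC spliced against genomic in DM3 (0.0939). The main tests were unpaired in all comparisons, and the number entered only the replicate block, which is an alternative. Coordinates and exon lengths are from GENCODE vM21 on GRCm38, the assembly of mm10, which held 34490 (97.8%) of the identifiers.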

Additional observations from a re-analysis of the deposited data

Results flagged for a closer look

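These results were singled out because the change from GM to DM3 in a MUNC line differed from that in control cells by an interaction term of the limma fit, on the log2(FPM + 1) scale. With MUNC spliced the difference was 2.38 for Cxcl10, -2.45 for Ccl5 and 1.21 for Il6. With MUNC genomic it was 2.00 for Cxcl1, -3.91 for Ccl5 and -2.94 for Ccl7. No group had 4 or more libraries, so no group was searched for a single library far from the others.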

How the results depend on the processing

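Over 110 results (10 genes in 11 comparisons), the replicate block lost 0 calls and gained 7, no filter lost 9 and gained 0, only the compared groups lost 4 and gained 1, a pseudocount of 0.1 FPM lost 3 and gained 1, edgeR lost 3 and gained 2, DESeq2 lost 3 and gained 5, and rescaled FPM lost and gained 0. With the replicate block the interaction with MUNC spliced gained Cxcl1 (adjusted p = 0.0309) and Csf1 (0.0125), and that with MUNC genomic gained Ccl2 (0.0173). The other changes under this block are given beside their results, and it changed no other call. The 3 genes called in the interaction with MUNC spliced became 1 with a pseudocount of 0.1 FPM, 5 with the replicate block and 1 with edgeR, and the 3 with MUNC genomic became 1 with edgeR. The direction turned for Cxcl1 in MUNC spliced against control GM with edgeR (-0.0255), for Cxcl5 there with rescaled FPM (0.0169), for Ccl2 in MUNC genomic against control GM with edgeR (-0.00584), and for Ccl5 in the interaction with MUNC genomic with edgeR (0.265) and DESeq2 (0.345). Of these, Ccl5 was the 1 called result, and its MUNC genomic GM libraries held 1 to 2 reads each, where the added pseudocount sets the change on the log scale. The causes of the others were not tested.

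Leaving out 1 library at a time lost 53 calls, gained 15 and turned 37 directions, the last among uncalled results. The number of the 10 genes called then ranged from 2 to 5 in control DM3 against GM (5 without replicate 1 of control GM) and from 5 to 8 in MUNC genomic against control DM3. The results that turned ranged as follows. In control DM3 against GM Cxcl1 ranged from -0.29 to 0.38, Cxcl10 from -0.16 to 0.88, Ccl2 from -0.61 to 0.14, Il6 from -0.0587 to 0.27 and Lif from -0.17 to 0.15. In MUNC spliced DM3 against GM Ccl2 ranged from -0.16 to 0.72, and in MUNC genomic DM3 against GM Cxcl10 from -0.17 to 0.10 and Il6 from -0.0697 to 0.00269. Against control, MUNC spliced GM gave Cxcl1 -0.31 to 0.37, Cxcl5 -0.45 to 0.34 and Cxcl12 -0.31 to 0.24, MUNC genomic GM gave Cxcl1 -0.56 to 0.36 and Ccl2 -0.34 to 0.42, and MUNC spliced DM3 gave Cxcl5 -0.0161 to 0.56. Between the MUNC lines Cxcl1 ranged from -0.25 to 0.59 in GM and Lif from -0.12 to 0.45 in DM3. In the interactions Cxcl5 ranged from -0.10 to 0.68 and Ccl7 from -0.51 to 0.36 with MUNC spliced, and Cxcl10 from -0.90 to 0.13 and Il6 from -0.31 to 0.0161 with MUNC genomic. What depth limits is Il6, Cxcl10 and Ccl5 in MUNC genomic cells, which rest on 0 to 24 reads in most libraries.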

Other observations

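Il18, a cytokine of the inflammasome pathway, had a mean of 0.557 FPM in control GM against 4.81 FPM in MUNC spliced GM (log2 change 1.86, limma adjusted p = 3.29e-05), and it rose in MUNC genomic GM too, to 2.92 FPM (1.31, adjusted p = 0.000961). Clcf1, which signals through Lifr and Il6st, fell with differentiation in all 3 lines, in MUNC spliced cells from 51.2 to 23.6 FPM (-1.10, adjusted p = 0.00308). Ctf1, another ligand of that receptor pair, rose in all 3 lines, in MUNC genomic cells from 4.10 to 11.2 FPM (1.26, adjusted p = 5.35e-06). Ccl25 fell in MUNC genomic cells from 8.13 to 4.41 FPM (-0.77, adjusted p = 0.00125). Ptgs2, which makes prostaglandins, had a mean of 216.5 FPM in control GM against 101 FPM in MUNC spliced GM (-1.15, adjusted p = 0.00791).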
